A study of Mus musculus with 12 samples.

Results

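The 9 genes described here encode proteins that decide how long inflammatory mRNAs last: the Regnase endonucleases Zc3h12a, Zc3h12c and Zc3h12d, the tristetraprolin family Zfp36, Zfp36l1 and Zfp36l2, the roquins Rc3h1 and Rc3h2, and the AU-rich element binding protein HuR, encoded by Elavl1. They were taken by name from the deposited gene tables, in which each symbol mapped to 1 Ensembl gene ID, out of 49585 IDs for liver and 55401 for macrophages. All 9 were counted in every library and passed the filter on low counts in both tissues. Poly(A) RNA of C57BL/6 mice was sequenced in 12 libraries, 3 in each of 4 groups. In liver, untreated tissue was compared with tissue taken 2 h after lipopolysaccharide (LPS), the bacterial cell wall component sensed by toll-like receptor signalling; the labels give these livers as WT. In cultured peritoneal macrophages, a lentivirus carrying a control hairpin RNA (shNC) was compared with a lentivirus whose hairpin targets Gm26917, a long non-coding RNA (shGm26917). Every macrophage group had the lentivirus for 72 h and then LPS for 2 h, so no macrophage library without LPS or without virus entered the comparison. Gm26917 itself, the target of the hairpin, was not analysed here in macrophages. The labels do not say whether replicates were separate animals or cultures, and p-values therefore measure the spread between these libraries.

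Messenger RNAs of cytokines and chemokines are made in bursts and are removed quickly, because their 3′ untranslated regions carry AU-rich elements or short stem-loops. Tristetraprolin (TTP, the product of Zfp36) and its relatives bind the AU-rich element and bring in the CCR4-NOT complex, which shortens the poly(A) tail, whereas HuR binds similar elements and protects the mRNA. Regnase-1 (the product of Zc3h12a) cuts stem-loops in mRNAs that are being translated, and the roquins bind such stem-loops and recruit deadenylase and decapping enzymes. LPS is known to induce Zfp36 and Zc3h12a in macrophages, and both mRNAs are among the targets of the proteins they encode.

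The AU-rich heptamer TATTTAT, the core that TTP-family proteins bind, was read from the 3′ untranslated regions of the GENCODE M21 transcripts (GRCm38). For each gene the longest such region among its protein-coding transcripts was taken, and whether that transcript was in use was not tested. Windows of 30 bases are shown for the 3 TTP-family mRNAs, for Zc3h12c, and for the cytokine and stress-response mRNAs Tnf, Il6 and Ier3, which are known targets. Sequences run 5′ to 3′ in the mRNA sense, with T for U, and the heptamers are in capitals.
Zfp36: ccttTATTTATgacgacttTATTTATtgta
Zfp36l1: cttatcaaaacgTATTTATtgccaaactat
Zfp36l2: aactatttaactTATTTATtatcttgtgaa
Zc3h12c: tgctataatcatTATTTATaggaacaaaga
Tnf: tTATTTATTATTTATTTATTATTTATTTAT
Il6: atttatgattgaTATTTATtatttttatga
Ier3: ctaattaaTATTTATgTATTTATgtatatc
The Zfp36 window begins 571 bases after the stop codon and holds 2 heptamers. The Tnf window begins 438 bases after it and holds 5 heptamers that adjoin or overlap. The Ier3 window begins 174 bases after it and holds 2. The Il6 window begins 1414 bases after it, in a region of 1668 bases, and so lies in the far part of the longest annotated form. Over the whole 3′ untranslated region, Zfp36, Zfp36l1 and Zfp36l2 each held 3 heptamers, Elavl1 held 8, Rc3h2 held 3, and Zc3h12c and Rc3h1 held 2 each. Zc3h12a and Zc3h12d held none. Tnf held 8 and Il6 held 1. Of 21020 protein-coding genes with such a region, 27.6% held at least 1 heptamer and 4.14% held at least 3. These regions differ in length, from 774 bases in Zfp36 to 4218 in Elavl1 and 7181 in Rc3h1, and a match describes the sequence without showing binding.

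Sequencing depth was alike across the series, with 15605311 to 20913964 counts per library, and replicates differed by more than sampling noise in every group. Liver libraries carried hepatocyte marker transcripts at summed levels of 57623 to 117180 CPM (counts scaled to a library size common to all libraries), and in the macrophage libraries the same markers summed to 0.0676 to 0.469 CPM. Macrophage markers summed to 12805 to 27265 CPM in the macrophage libraries. In macrophages 1 library stood apart, and in liver 1 library of each group did. Replicate 2 of the control hairpin differed from the other two control libraries by a chi-square per degree of freedom of 192 and 228, against 28.1 between those others. Untreated liver replicate 3 differed from its group by 187 and 166, against 81.9 between the others. LPS liver replicate 1 differed from its group by 76.2 and 70.7, against 20.6 between the others, and its Kupffer cell markers were low, with Vsig4 at 2.95 CPM beside 21.3 and 19.3 CPM. Where the call or direction of a member changed without 1 of these libraries, the result without it is also given.

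In untreated liver the 3 TTP-family genes stood far above the other members, and the Regnases were near the bottom. Levels between genes are given as CPM per kilobase of exon, with exons joined over all annotated transcripts of a gene. For Zfp36 the joined exons, 3470 bases, cover the whole gene span. Its levels per kb, its rank and its family share depend on that length, and which transcripts were in use was not tested. Zfp36l1 was at 23.3 ± 8.07, Zfp36 at 20.2 ± 5.49 and Zfp36l2 at 19.5 ± 5.61 CPM per kb (SD, n = 3), and the libraries of these neighbours overlapped. Rc3h1 at 2.56 ± 0.919 and Elavl1 at 2.39 ± 0.178 CPM per kb came next and also overlapped each other. Zc3h12d, Zc3h12c, Zc3h12a and Rc3h2 all lay between 0.694 and 1.09 CPM per kb.

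At 2 h after LPS the order in liver was different. Zfp36 led at 92.2 ± 8.28 CPM per kb, Zfp36l1 followed at 43.2 ± 2.08, and Zc3h12a had moved to the third place at 10.2 ± 1.53 (SD, n = 3). Zfp36l2 stood at 2.66 ± 0.453 CPM per kb, next to Rc3h1 at 2.56 ± 0.558, with overlapping libraries. Zc3h12c was the lowest member at 0.401 ± 0.0997 CPM per kb. Apart from Zfp36l2 and Rc3h1, no neighbours in the LPS order overlapped.

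**Figure D1:**
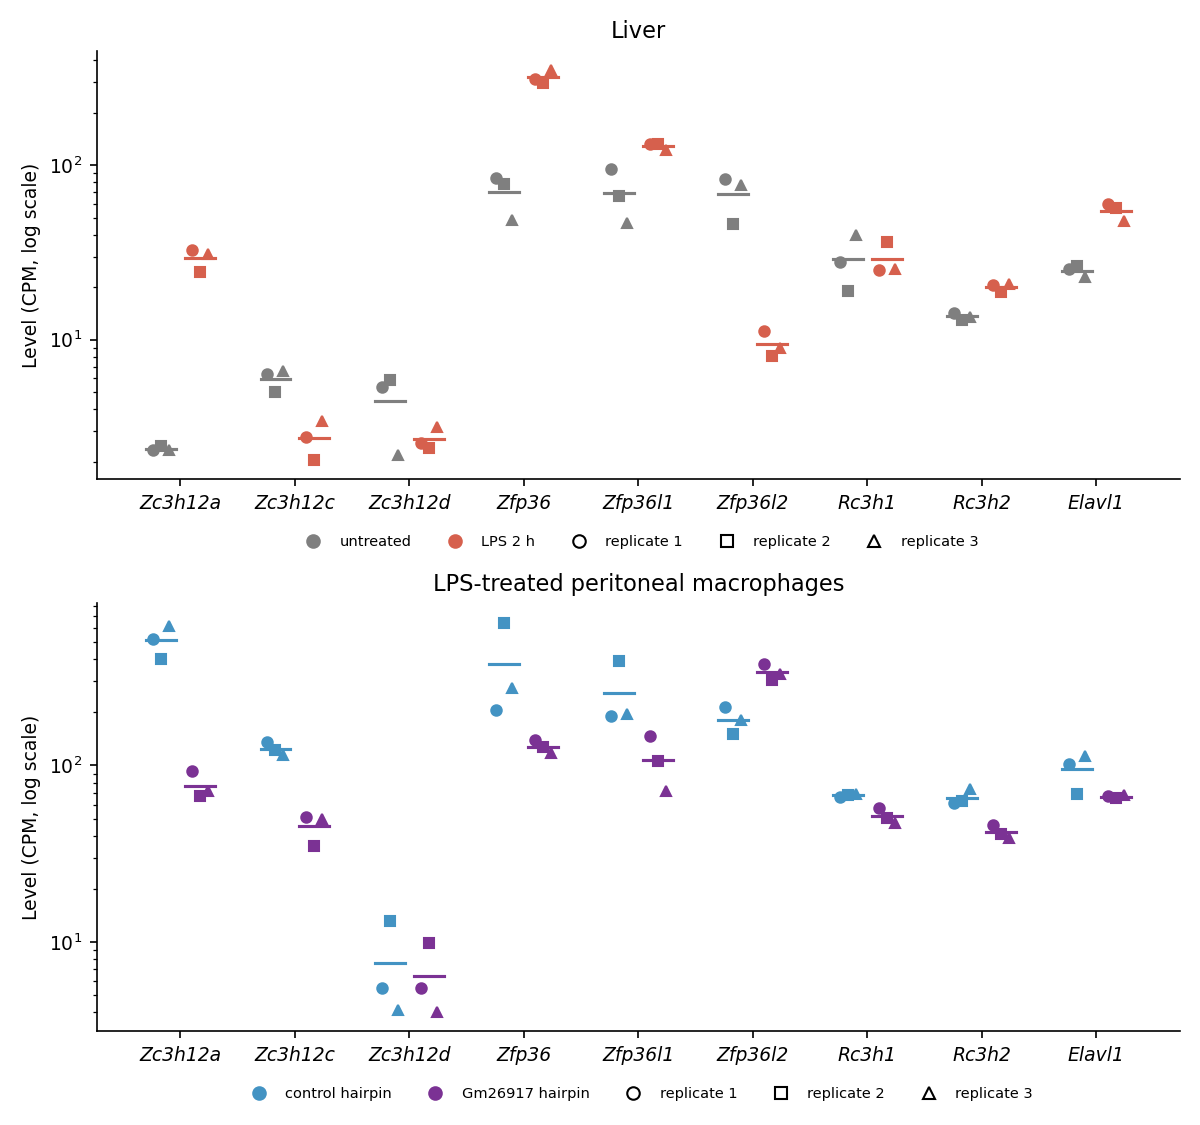
Levels of the 9 decay factors in each library, as CPM on a log axis, for liver (top) and LPS-treated macrophages (bottom). Each symbol is 1 library, its shape gives the replicate, and the horizontal line is the mean of 3 libraries. Zc3h12a in liver lies between 2.32 and 2.46 CPM without LPS and between 24.4 and 32.7 CPM with it.

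In liver, 5 of the 9 members rose with LPS, 2 fell and 2 did not pass the test. The threshold was an adjusted p of 0.05 in the quasi-likelihood F test of edgeR, with p-values adjusted by Benjamini-Hochberg over the 13869 genes tested. LPS moved much of the liver transcriptome: 45.3% of all genes tested were called, 23.3% as higher and 22.1% as lower. The libraries of the LPS and untreated groups did not overlap for 5 members that were higher and 2 that were lower, which compares with 29.4% and 28.4% of all genes tested, or 57.8% in either direction. With library totals alone as scaling, which moves the median of all genes by −0.43 on the log2 scale, 3 members rose and 3 fell, and the share of all calls that were higher went from 51.3% to 26.8%. Leaving out untreated replicate 2 or LPS replicate 2 left 3 rises, leaving out LPS replicate 1 or 3 left 4, and without untreated replicate 3 the falls numbered 3. The median log2 fold change of the members was 0.56, beside −0.06 for all genes tested. In a bulk tissue, fewer cells of a type and less RNA per cell cannot be told apart.

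Zc3h12a, which encodes Regnase-1, showed the largest rise of the members in liver. Its 3 untreated libraries held 2.32, 2.46 and 2.34 CPM, from 51 to 54 counts each, and its LPS libraries held 32.7, 24.4 and 31.1 CPM. Every LPS library was about an order of magnitude above every untreated library. The rise was 12.3-fold, a log2 fold change of 3.63 ± 0.20 (SE) with an adjusted p of 6.52e-06. Of all genes tested in liver, 3.14% had a more positive log2 fold change. The other Regnases did not follow. Zc3h12c, which encodes a related endonuclease, fell from 6.33, 5.01 and 6.60 CPM to 2.76, 2.05 and 3.42 CPM. The groups did not overlap, and the log2 fold change was −1.13 ± 0.27 (adjusted p = 0.0106). Zc3h12d, a family member best known from lymphocytes, held 5.37, 5.89 and 2.17 CPM without LPS and 2.57, 2.39 and 3.16 CPM with it. Untreated replicate 3 lay below all LPS libraries while the other two untreated libraries lay above them, and the log2 fold change of −0.72 ± 0.39 did not pass the test (adjusted p = 0.156). Without untreated replicate 3 the log2 fold change of Zc3h12d was −1.06 with an adjusted p of 0.0148.

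Zfp36, the gene of TTP itself, rose 4.57-fold in liver. It lies at chr7:28376784-28380253 on the minus strand (GRCm38). Its untreated libraries held 84.1, 77.7 and 48.4 CPM and its LPS libraries 313, 295 and 352 CPM. The lowest LPS library exceeded the highest untreated library more than 3 times over, and the log2 fold change was 2.19 ± 0.25 (SE, adjusted p = 0.000258). Zfp36l1, whose protein binds the same element, rose less, from 95.0, 66.9 and 47.0 CPM to 133, 132 and 122 CPM. Its groups did not overlap, and the log2 fold change was 0.89 ± 0.26 (adjusted p = 0.0213). Zfp36l1 no longer passed when untreated replicate 2 (adjusted p = 0.0692), LPS replicate 1 (0.0519) or LPS replicate 2 (0.0589) was left out. Scaled by library totals alone it had a log2 fold change of 0.44 (adjusted p = 0.219).

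Zfp36l2, the remaining TTP-family gene of this set, went the other way. Its level was 83.1, 46.1 and 76.7 CPM in untreated liver and 11.2, 8.04 and 8.99 CPM after LPS. Every LPS library lay well under every untreated library, a 7.31-fold fall with a log2 fold change of −2.87 ± 0.27 (SE, adjusted p = 7.24e-05). Of all genes tested in liver, 1.74% had a more negative log2 fold change.

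Of the roquins and HuR, Elavl1 and Rc3h2 rose and Rc3h1 did not pass the test. Rc3h1, the gene of roquin-1, held 28.0, 19.1 and 39.8 CPM without LPS and 25.0, 36.2 and 25.5 CPM with it. The groups overlapped throughout, and the log2 fold change was −0.0032 ± 0.28 (SE, adjusted p = 0.994). Rc3h2, the gene of roquin-2, rose from 14.3, 13.02 and 13.5 CPM to 20.7, 18.7 and 20.9 CPM, without overlap (log2 fold change 0.56 ± 0.16, adjusted p = 0.0209). Rc3h2 did not pass on leaving out untreated replicate 2 (adjusted p = 0.0684), LPS replicate 2 (0.0502) or LPS replicate 3 (0.0768), nor under scaling by library totals (log2 fold change 0.13, adjusted p = 0.575). Elavl1 rose 2.21-fold, from 25.3, 26.3 and 22.8 CPM to 60.1, 56.8 and 47.9 CPM. The log2 fold change of Elavl1 was 1.15 ± 0.17 (adjusted p = 0.000895), and its groups did not overlap. Elavl1 shares 204 bases of exon with Ccl25 on the opposite strand, a chemokine gene with 423 counts over the 6 liver libraries, against 524 to 1023 counts of Elavl1 in each library. Zfp36l1 shares 1672 of its 2990 exon bases with Gm26669 on the opposite strand. Gm26669 had 72 counts over the liver libraries and was not among the macrophage IDs. Also on the opposite strand, Zfp36 shares 125 bases with Gm44710, Zfp36l2 105 with AC132455.1 and Zc3h12c 117 with Mir6244. The sources used here do not give whether counting used strand, and the effect of these overlaps on the levels was not tested.

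**Figure D2:**
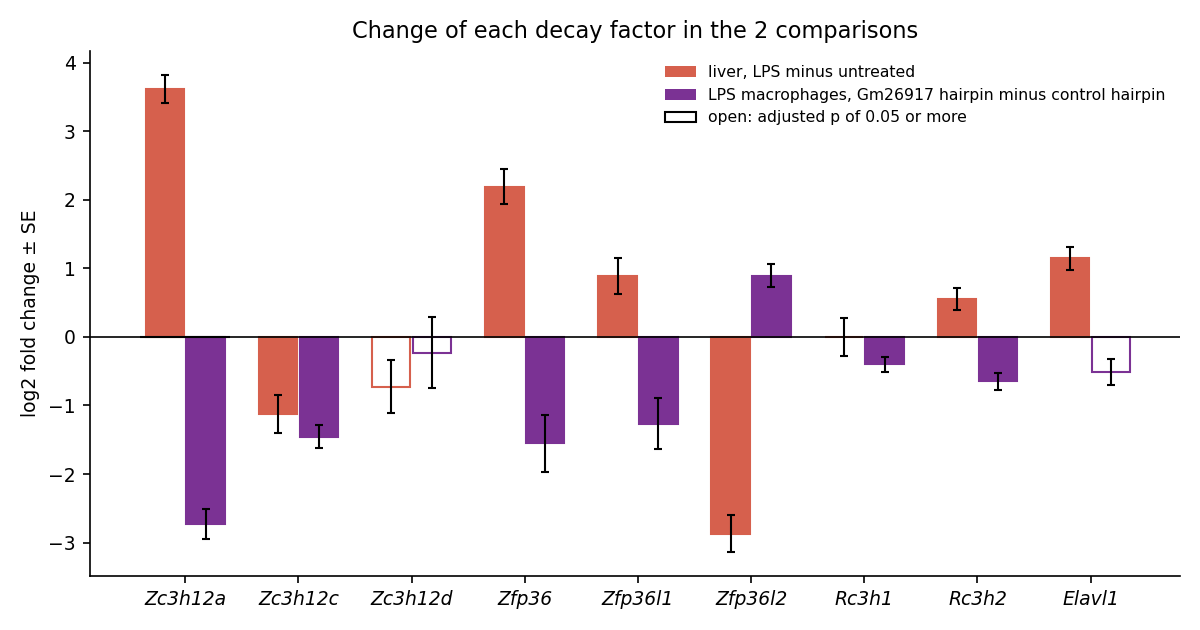
Log2 fold change (bars) with its standard error for each member, LPS minus untreated in liver and Gm26917 hairpin minus control hairpin in LPS macrophages. Filled bars passed an adjusted p of 0.05 and open bars did not. Zc3h12a, Zfp36, Zfp36l1 and Rc3h2 are above 0 in liver and under 0 in macrophages, and Zfp36l2 is the reverse.

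Because the scaling of libraries affects all genes at once, ratios of members within a library were compared as well. With 3 libraries against 3, the exact permutation test cannot give a p under 0.1, and p-values were adjusted over 7 ratios in each tissue. In liver the Zfp36 to Zfp36l2 ratio, taken per kb of exon, had log2 values of 0.04, 0.78 and −0.64 without LPS and 4.83, 5.22 and 5.31 with it. It shifted by 5.06 on the log2 scale, a 33.3-fold change, with the groups fully separated (2-sided exact p = 0.1, the smallest possible, adjusted 0.117). The Zc3h12a to Zc3h12c ratio shifted by 4.74, the Zfp36l1 to Zfp36l2 ratio by 3.78, the Zc3h12a to Elavl1 ratio by 2.46, the Zfp36 to Zfp36l1 ratio by 1.28 and the Zfp36 to Elavl1 ratio by 1.09, each with the same exact p. The Rc3h1 to Rc3h2 ratio overlapped between the groups (shift −0.52, exact p = 0.2).

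Seen as shares of a family's reads per kb, the TTP family in liver went from 3 nearly equal members to a mixture dominated by Zfp36. The near equality and the shares depend on the joined exon lengths. Zfp36 made up 32.1 ± 5.97% of family reads without LPS and 66.7 ± 2.90% with it (SD, n = 3). Zfp36l1 went from 36.4 ± 5.08% to 31.4 ± 2.81%. Zfp36l2 went from 31.5 ± 9.98% to 1.93 ± 0.315%. The family sum per kb was 62.9 ± 14.8 CPM without LPS and 138 ± 6.55 CPM with it. Among the Regnases, Zc3h12a went from 29.97 ± 4.65% to 90.6 ± 1.10% of family reads, while the family sum went from 2.79 ± 0.418 to 11.3 ± 1.67 CPM per kb.

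**Figure D3:**
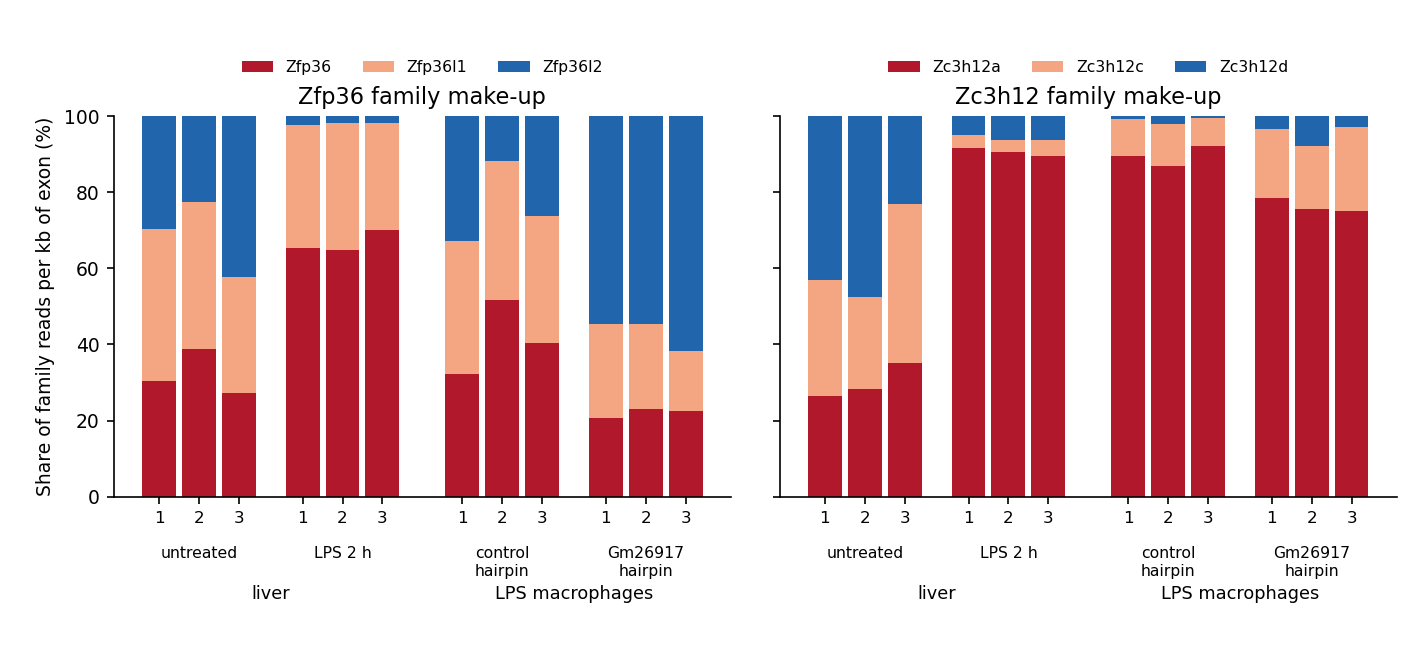
Make-up of the TTP family (left) and the Regnase family (right), as each gene's percent of the family's reads per kb of exon, 1 bar per library and numbered by replicate. Zfp36l2 takes 22.6 to 42.3% of the TTP family in untreated liver, 1.73 to 2.29% after LPS, 11.9 to 32.9% in macrophages with the control hairpin and 54.5 to 61.7% with the Gm26917 hairpin.

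Promoter windows are shown for Zfp36 and Zc3h12a, the members with the largest rises in liver. They are the 250 bases before the RefSeq start (GRCm38.p6), on the gene's strand, 5′ to 3′, with motif matches in capitals. Motifs searched were NF-kB, AP-1 (TGANTCA), the cyclic AMP element (TGACGTCA), the serum response element, STAT (TTCNNNGAA) and, on the gene's strand alone, TATAAA. All others were searched on both strands.
Zfp36, chr7:28379229-28379478, minus strand: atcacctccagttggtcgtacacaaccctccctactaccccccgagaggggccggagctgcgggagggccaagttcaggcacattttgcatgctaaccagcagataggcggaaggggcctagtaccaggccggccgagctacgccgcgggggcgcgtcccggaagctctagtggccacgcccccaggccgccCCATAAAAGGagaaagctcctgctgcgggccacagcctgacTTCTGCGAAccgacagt
Zc3h12a, chr4:125127882-125128131, minus strand: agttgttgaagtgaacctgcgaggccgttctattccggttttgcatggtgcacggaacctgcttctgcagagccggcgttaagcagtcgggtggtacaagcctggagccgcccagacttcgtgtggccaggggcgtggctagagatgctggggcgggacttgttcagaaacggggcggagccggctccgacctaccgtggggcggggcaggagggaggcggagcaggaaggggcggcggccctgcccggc
The Zfp36 window held a serum response match (CCATAAAAGG) at −58 to −49 and a STAT match (TTCTGCGAA) at −17 to −9, counted from the start. The serum response motif was found in 1.47% and the STAT motif in 7.02% of 32851 promoter windows of that length. The Zc3h12a window held none of the 6 motifs. Among the other members searched, an NF-kB match lay in Zc3h12c, AP-1 matches in Zfp36l1 and Rc3h1, and a TATAAA match in Zfp36l1. The NF-kB, AP-1 and TATAAA motifs were found in 7.25%, 6.75% and 7.59% of the promoter windows. The part of any match in the changes was not tested. The Zfp36 window lies inside the first exon of a longer GENCODE transcript of the gene.

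The LPS livers also held higher levels of neutrophil markers. All 7 of the tested neutrophil markers, of 9 listed, rose, and the list summed to 2.59 to 8.03 CPM in untreated libraries and 222 to 310 CPM after LPS. Markers such as Ngp, Mmp8, Retnlg and Cxcr2, with untreated means of 0.0770 to 0.254 CPM, passed the filter on low counts only through the LPS libraries. That all of the tested markers rose was therefore partly set by the filter. Of 8 macrophage markers 3 rose, and that list summed to 121 to 152 CPM without LPS and 337 to 555 CPM with it. Most of that sum was Cd14, itself induced by LPS in several cell types, which went from 4.17 to 6.92 CPM up to 263 to 428 CPM. The log2 fold changes of Adgre1, Csf1r and Mertk were −0.51, −0.87 and −0.77, and none of these passed the test. None of 6 hepatocyte markers passed the test in edgeR, none did at an unadjusted p under 0.05, and 1 was higher in DESeq2. The numbers that rose and fell were 1 and 0 of 7 for Kupffer cells, 2 and 0 of 8 for T and NK cells, 0 and 1 of 5 for B cells, 3 and 2 of 7 for sinusoidal endothelium and 0 and 1 of 9 for stellate cells, fibroblasts and mesothelium. The part of these cells in the changes of the decay factors was not tested.

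In the LPS-treated macrophages the order of levels differed from that in liver, and the tissues were normalized separately, so no test was made between them. With the control hairpin, Zc3h12a was the highest member at 177 ± 37.1 CPM per kb, followed by Zfp36 at 108 ± 67.9, Zfp36l1 at 86.5 ± 37.7 and Zfp36l2 at 51.5 ± 8.87 (SD, n = 3). The libraries of the first 3 overlapped from neighbour to neighbour, and those of Zfp36l1 and Zfp36l2 did not. This order also depends on the exon lengths. Zc3h12c stood at 18.1 ± 1.49, Elavl1 at 9.16 ± 2.27, Rc3h1 at 6.01 ± 0.136, Rc3h2 at 3.35 ± 0.341 and Zc3h12d at 1.85 ± 1.18 CPM per kb. With the Gm26917 hairpin, Zfp36l2 was the highest at 95.5 ± 10.3 CPM per kb. Zfp36, Zfp36l1 and Zc3h12a followed at 36.8, 36.0 and 26.7 CPM per kb with overlapping libraries.

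With the Gm26917 hairpin, 6 of the 9 members fell, 1 rose and 2 did not pass the test. Of the 12876 genes tested in macrophages, 23.7% were called, 12.6% as higher and 11.1% as lower. The hairpin groups did not overlap for 1 member that was higher and 7 that were lower, beside 24.2% and 21.7% of all genes tested, or 45.9% in either direction. The members' median log2 fold change was −0.65, beside −0.00073 for all genes tested. With library totals alone, which move the median of all genes by 0.29 on the log2 scale, 2 members fell and 1 rose, and the share of all calls that were higher went from 53.1% to 79.8%. The count of members that fell was 3, 2 and 2 without Gm26917-hairpin replicates 1, 2 and 3, and none rose in these cases. It was 4, 7 and 3 without control replicates 1, 2 and 3, with 1 rise each.

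Zc3h12a fell most. It held 518, 401 and 614 CPM with the control hairpin and 92.6, 67.0 and 71.5 CPM with the Gm26917 hairpin. The groups were far apart, a 6.64-fold fall with a log2 fold change of −2.73 ± 0.22 (SE, adjusted p = 0.00233). Of all genes tested in macrophages, 2.06% had a more negative log2 fold change. Zc3h12c fell with it, from 135, 122 and 115 CPM to 51.1, 35.04 and 49.6 CPM, again without overlap (log2 fold change −1.46 ± 0.17, adjusted p = 0.00431). Both calls held whichever single library was left out. Zc3h12d held 5.49, 13.1 and 4.12 CPM with the control hairpin and 5.50, 9.86 and 4.03 CPM with the Gm26917 hairpin. The groups overlapped and the log2 fold change was −0.23 ± 0.51 (adjusted p = 0.774). Replicate 2 was the highest of its group in both. All 5 B cell markers were detected in the macrophage libraries, at summed levels of 192 to 606 CPM with the control hairpin and 117 to 285 CPM with the Gm26917 hairpin, and each was highest in replicate 2 of its group. The part of B cells in the Zc3h12d level was not tested.

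Zfp36 held 205, 644 and 275 CPM with the control hairpin and 140, 126 and 117 CPM with the Gm26917 hairpin. All control libraries lay above all Gm26917-hairpin libraries, and control replicate 2 was more than 2 times as high as the other controls. The log2 fold change was −1.55 ± 0.42 (SE, adjusted p = 0.0387). Without control replicate 2 it was −0.92 with an adjusted p of 0.00277. The Zfp36 call was lost without control replicate 3 (adjusted p = 0.0605) and without Gm26917-hairpin replicate 1 (0.105), 2 (0.127) or 3 (0.130), and when scaled by library totals (log2 fold change −1.25, adjusted p = 0.0530).

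Zfp36l1 held 191, 389 and 196 CPM with the control hairpin and 146, 106 and 71.3 CPM with the Gm26917 hairpin. The groups did not overlap, with control replicate 2 again the highest, and the log2 fold change was −1.26 ± 0.37 (SE, adjusted p = 0.0494). Without control replicate 2 the log2 fold change of Zfp36l1 was −0.86 (adjusted p = 0.0291). The call was lost without control replicate 1 (adjusted p = 0.0567), control replicate 3 (0.0707) and Gm26917-hairpin replicates 1 (0.0673), 2 (0.150) or 3 (0.144), and when scaled by library totals (0.0790).

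Zfp36l2 rose, the sole member to do so. It held 213, 150 and 182 CPM with the control hairpin and 377, 306 and 328 CPM with the Gm26917 hairpin. Every Gm26917-hairpin library lay above every control library, a 1.86-fold rise with a log2 fold change of 0.89 ± 0.17 (SE, adjusted p = 0.0142). Without control replicate 2 the rise was 0.76 (adjusted p = 0.00478). The adjusted p was 0.0573, 0.0518 and 0.0575 without Gm26917-hairpin replicates 1, 2 and 3.

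The roquins and Elavl1 shifted by smaller amounts. Rc3h1 went from 66.2, 68.4 and 69.1 CPM to 57.4, 50.2 and 47.1 CPM, a log2 fold change of −0.40 ± 0.11 (SE, adjusted p = 0.0438). The Rc3h1 call was lost on leaving out any single library other than control replicate 2, at adjusted p-values of 0.0630 to 0.156, and when scaled by library totals (log2 fold change −0.11, adjusted p = 0.496). Rc3h2 went from 61.4, 62.6 and 73.5 CPM to 45.9, 41.2 and 38.8 CPM (log2 fold change −0.65 ± 0.12, adjusted p = 0.0140). Its call was lost without Gm26917-hairpin replicate 2 (adjusted p = 0.0699) or 3 (0.0673) and with library totals alone (0.0535). For both roquins the groups did not overlap. Elavl1 held 103, 68.6 and 114 CPM with the control hairpin and 67.2, 65.3 and 67.7 CPM with the Gm26917 hairpin. Control replicate 2 lay just above the Gm26917-hairpin libraries, and the log2 fold change of −0.51 ± 0.19 did not pass the test (adjusted p = 0.0975). Without control replicate 2 it was −0.71 with an adjusted p of 0.00159.

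Ratios within a macrophage library gave the same split inside the TTP family. The Zfp36 to Zfp36l2 ratio per kb had log2 values of −0.03, 2.12 and 0.62 with the control hairpin and −1.41, −1.25 and −1.46 with the Gm26917 hairpin. The shift was −2.28 on the log2 scale without overlap (2-sided exact p = 0.1, the smallest possible, adjusted 0.14). The Zfp36l1 to Zfp36l2 ratio shifted by −2.14, the Zc3h12a to Elavl1 ratio by −2.25, the Zc3h12a to Zc3h12c ratio by −1.25 and the Rc3h1 to Rc3h2 ratio by 0.25, each with that exact p. The Zfp36 to Zfp36l1 ratio shifted by −0.13 with overlapping groups (exact p = 0.7), and the Zfp36 to Elavl1 ratio by −0.90 (exact p = 0.2). As shares of family reads per kb, Zfp36l2 went from 23.7 ± 10.7% to 57.0 ± 4.11% (SD, n = 3), Zfp36 from 41.5 ± 9.83% to 22.0 ± 1.28% and Zfp36l1 from 34.9 ± 1.45% to 21.03 ± 4.68%. Zc3h12a remained the main Regnase, at 89.6 ± 2.69% of family reads with the control hairpin and 76.4 ± 1.84% with the Gm26917 hairpin.

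Set side by side, 6 of the 9 members were called in both tissues, beside 12.4% of the 11400 genes tested in both. Zc3h12a, Zfp36, Zfp36l1 and Rc3h2 were higher after LPS in liver and lower with the Gm26917 hairpin in LPS macrophages. Zfp36l2 was lower in the former and higher in the latter. Zc3h12c was lower in each. Of these 6, Zfp36, Zfp36l1, Zfp36l2 and Rc3h2 lost the macrophage call without at least 1 library, as given above. Zfp36l1 and Rc3h2 also lost the liver call without at least 1 library and when scaled by library totals. Whether the changes differ between the tissues was not tested.

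Genes whose levels most resembled those of a member over the 12 libraries were found among the 11399 other genes tested in both tissues, as the root mean square difference of log2 CPM after centring each gene within a tissue. For Zc3h12a these were Slc15a3 (0.30) and Gadd45b (0.30), against a median of 1.65 over all genes. For Zfp36 they were Nmi (0.19) and Ogfr (0.19), with a median of 1.09. For Zfp36l2 they were Slc25a32 (0.25) and Snx30 (0.25), with a median of 1.12. For Zc3h12c they were Micall1 (0.26) and 2700081O15Rik (0.26), for Zfp36l1 Tet2 (0.22) and Zfp281 (0.23), for Rc3h2 Tmem128 (0.071) and Ccdc59 (0.090), and for Elavl1 Eif3d (0.12) and Dcun1d5 (0.12).

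The lists of genes that control TTP and Regnase-1 or carry out the decay were read against all genes tested in liver. Of the 73 genes tested in 5 such lists, 31 were called, 21 as higher and 10 as lower. That is 42.5%, close to the 45.3% of all genes. Of 13 genes for kinases, phosphatases and the phosphoserine-binding Ywha adaptors that control TTP, 4 rose and none fell with LPS, with a median log2 fold change of 0.25. The count of falls was also 0 at an unadjusted p under 0.05 in edgeR and 0 in DESeq2. Mapkapk2, the kinase that phosphorylates TTP, rose from 70.4 ± 13.9 to 159 ± 11.6 CPM (log2 fold change 1.17 ± 0.21, adjusted p = 0.00220). Its activator Mapk14 had a log2 fold change of 0.80 (adjusted p = 0.0389) and the phosphatase subunit Ppp2cb of 0.79 (adjusted p = 0.00513). The Mapk14 call was lost on leaving out any library other than untreated replicate 3, at adjusted p-values of 0.0540 to 0.129. Scaling by library totals left 1 rise and 1 fall among the 13, and the calls of Mapk14 and Ppp2cb were lost (adjusted p = 0.263 and 0.135). Of 11 genes that control Regnase-1 or work with it, 5 rose and 1 fell, and 4 rose and 3 fell when scaled by library totals. Arid5a, whose protein protects Il6 mRNA from Regnase-1, rose 87.3-fold, from 1.37, 2.09 and 2.65 CPM to 238, 141 and 155 CPM, with no overlap (log2 fold change 6.45 ± 0.36, adjusted p = 6.29e-06). Tank rose with a log2 fold change of 1.44 and Fbxw11, part of a ubiquitin ligase that recognises phosphorylated Regnase-1, rose by 1.16.

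Of 18 deadenylation genes 2 rose and 6 fell with LPS. Tob1, an adaptor that brings deadenylases to bound mRNAs, fell 61.9-fold, from 197, 151 and 127 CPM to 3.64, 2.05 and 1.96 CPM. Every LPS library of Tob1 was under 4 CPM (log2 fold change −5.95 ± 0.33, adjusted p = 6.52e-06). Its relative Tob2 fell by 1.65 on the log2 scale (adjusted p = 0.000180), and Btg2, of the same adaptor family, rose by 1.39 (adjusted p = 0.0253). Btg2 did not pass when untreated replicate 2 (adjusted p = 0.0785), LPS replicate 1 (0.0712) or LPS replicate 2 (0.0521) was left out, nor when scaled by library totals (0.130). The deadenylation counts depended on single libraries, with 2 to 5 lower and 0 to 2 higher when each library was left out in turn. The lowest count of falls, 2, came without LPS replicate 2, 3 came without LPS replicate 3, 4 without LPS replicate 1 or untreated replicate 3, and 5 in the remaining cases. No rise passed without LPS replicate 1 or untreated replicate 2, and 1 passed without LPS replicate 2, untreated replicate 1 or untreated replicate 3. Scaled by library totals, 9 fell and none rose. Of 21 decapping and exonuclease genes 7 rose and 1 fell. In this list Pnrc1 rose from 80.2 ± 23.3 to 699 ± 153 CPM (log2 fold change 3.12 ± 0.31, adjusted p = 0.000103), the decapping enzyme Dcp2 by 3.05 and the exosome helicase Skiv2l by 2.33 on the log2 scale. For these genes 4 rose and 3 fell when scaled by library totals.

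Of 10 tested genes for other Regnase-like or AU-rich element binding proteins, from 15 listed, 3 rose and 2 fell with LPS. N4bp1, a related ribonuclease, rose 6.60-fold, from 12.7 ± 1.62 to 84.0 ± 1.67 CPM. Pcbp1, a poly(C) binding protein, rose by 1.19 on the log2 scale. Khnyn, a Regnase-like cofactor of antiviral RNA decay, fell from 31.4 ± 9.59 to 10.9 ± 1.15 CPM (log2 fold change −1.53). The count of falls was 1 without LPS replicate 2, LPS replicate 3 or untreated replicate 3, and when scaled by library totals 2 rose and 5 fell.

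In macrophages 16 of the 73 genes of these lists were called, 4 as higher and 12 as lower, or 21.9% beside 23.7% of all genes tested. Of the 13 TTP-controlling genes 1 rose and 1 fell, namely Mapk14 (log2 fold change 0.69, adjusted p = 0.0120) and Mapkapk2 (−0.63, adjusted p = 0.0464). The falls in this list numbered 4 in DESeq2 and 5 at an unadjusted p under 0.05. Of the 11 Regnase-1 genes 1 rose and 3 fell, with Arid5a the largest fall, from 56.3 ± 22.2 to 24.2 ± 5.50 CPM (log2 fold change −1.22, adjusted p = 0.0298). Tank had a log2 fold change of −0.67 and Fbxw11 of −0.63. Of the 10 other binding proteins Celf1 fell, by 0.79 on the log2 scale, and none rose, also not at an unadjusted p under 0.05 or in DESeq2, while 2 rose when scaled by library totals. Of 18 deadenylation genes 1 rose (Parn, 0.61) and 2 fell (Cnot6, −0.50, and Cnot2, −0.46). Of 21 decapping and exonuclease genes 1 rose (Exosc5, 0.80) and 5 fell, among them Dcp2 at −1.06 and Dcp1a at −0.51. These counts rested on single libraries, and each of the 12 genes named here lost its call without at least 1 Gm26917-hairpin library, at adjusted p-values up to 0.171 for Mapkapk2. On leaving out any of the Gm26917-hairpin libraries, 0 of the TTP-controlling, 0 to 1 of the Regnase-1, 0 to 1 of the deadenylation and none of the decapping genes fell. Without control replicate 2 the falls numbered 7 of 13, 6 of 11, 5 of 18 and 6 of 21 in these lists. Without control replicates 1 and 3 they numbered 1 and 0 of 13, 3 and 3 of 11, 3 and 0 of 18, and 1 and 1 of 21. With library totals alone 0, 0, 0 and 1 fell and 1, 1, 3 and 5 rose, so that the decapping list went from 5 falls and 1 rise to 1 fall and 5 rises. Celf1 was among 3 falls of 10 without control replicate 2 and lost its call without Gm26917-hairpin replicate 2 or 3, where no binding protein fell.

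The mRNAs that these factors are known to remove include cytokines, chemokines and early response genes. In liver 17 of 20 tested TTP-family targets, from 22 listed, rose with LPS and 1 fell. Of 16 tested Regnase and roquin targets, from 18 listed, 12 rose and 1 fell. Beside these counts, 23.3% of all genes tested in liver were called higher and 22.1% lower. Among the targets named here, Tnf, Il6, Ccl2, Cxcl2 and Nos2 had untreated means of 0 to 0.389 CPM. These and other targets near 0 without LPS passed the filter on low counts only through the LPS libraries. The counts and medians of the target lists were therefore partly set by the filter. The lists share Tnf, Il6, Ier3, Ptgs2, Cxcl1 and Cxcl2. The median log2 fold change was 5.28 and 4.59, beside −0.06 for all genes, and the lists also held genes that did not pass the test, such as Dusp1 at 0.26 and Plau at −0.13. Tnf held 0, 0.185 and 0.0868 CPM without LPS and 29.6, 31.8 and 23.5 CPM with it, from 6 and 1417 counts (log2 fold change 8.19 ± 0.47, adjusted p = 7.19e-06). The groups were separated by more than 2 orders of magnitude. Il6 rose from 0.106 ± 0.105 to 9.66 ± 2.33 CPM and Il1b from 2.13 ± 1.63 to 81.3 ± 8.45 CPM. The chemokines Ccl2 and Cxcl2 rose by 8.96 and 7.68 on the log2 scale. Nos2, the inducible nitric oxide synthase, had 0 counts in the untreated libraries and 478 with LPS, and was at least 212-fold higher against a floor of 3 counts over the group. Cyp7a1, which encodes the enzyme that limits the rate of bile acid production and is a known target of the Zfp36l1 protein, fell from 188 ± 63.0 to 7.41 ± 2.22 CPM.

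**Figure D4:**
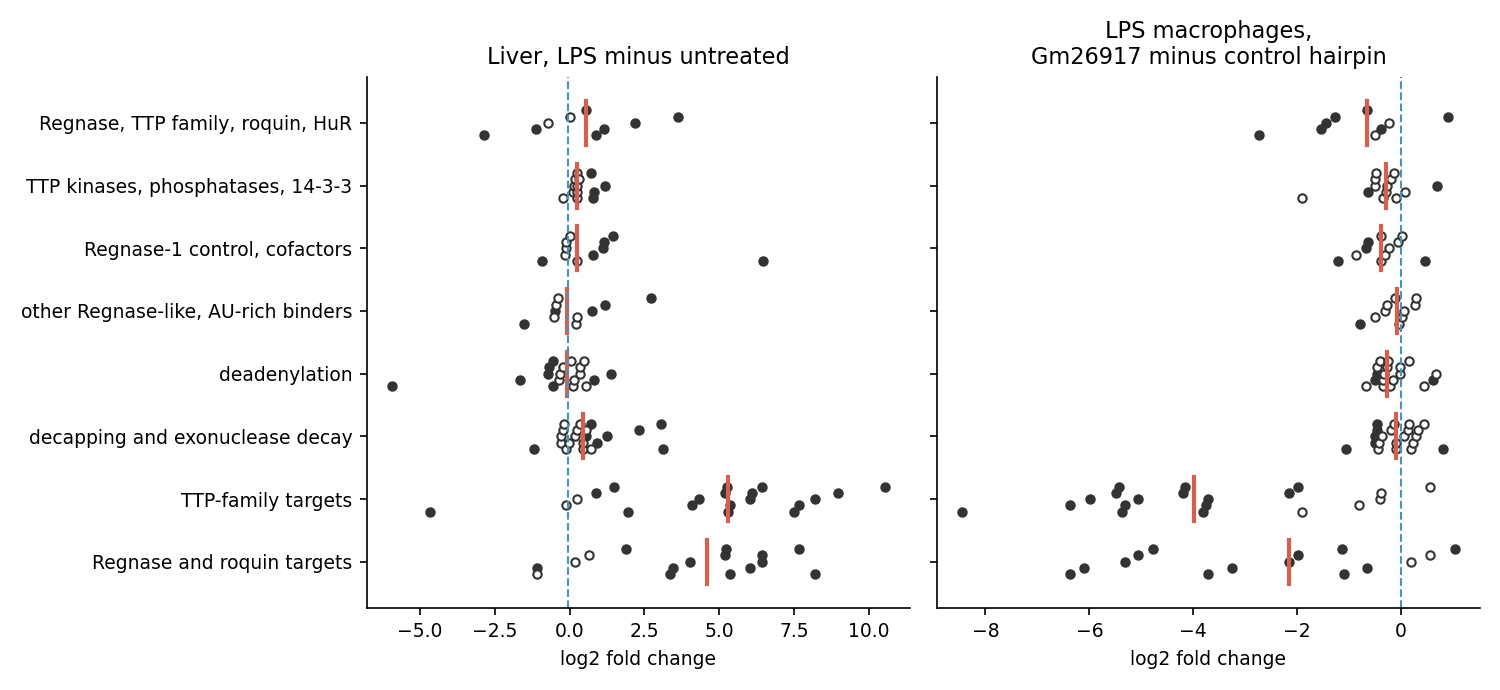
Log2 fold change of each tested gene in the members and the 7 related lists, in liver (left) and macrophages (right). Filled points passed an adjusted p of 0.05, red bars are list medians and the dashed line is the median of all genes tested. The medians of the TTP-family targets are 5.28 in liver and −3.99 in macrophages. The point of Nos2 in liver is a fitted value for a gene with no untreated counts and does not measure its size.

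In macrophages 15 of 20 tested TTP-family targets fell with the Gm26917 hairpin and none rose. Of 15 tested Regnase and roquin targets 12 fell and 1 rose. Beside these counts, 11.1% of all genes tested in macrophages were called lower and 12.6% higher. Nos2 and Il12b, at means of 0.584 and 0.369 CPM with the Gm26917 hairpin, passed the filter on low counts only through the control libraries. For such genes a fall was partly set by the filter. No TTP-family target was higher at an unadjusted p under 0.05 or in DESeq2 either, and 1 was without control replicate 2. The medians were −3.99 and −2.16 on the log2 scale, beside −0.00073 for all genes. Tnf held 299, 150 and 316 CPM with the control hairpin and 67.4, 44.8 and 81.4 CPM with the Gm26917 hairpin, without overlap (log2 fold change −1.98 ± 0.35, adjusted p = 0.0110). Il6 fell from 1774, 273 and 3707 CPM to 30.5, 12.98 and 26.0 CPM (log2 fold change −6.37 ± 1.02, adjusted p = 0.00901). Nos2 fell from 30.2, 531 and 68.5 CPM to 0.916, 0.383 and 0.454 CPM (log2 fold change −8.45 ± 1.41, adjusted p = 0.00979). For Il6 control replicate 2 was the lowest of its group and for Nos2 it was the highest. The log2 fold change was −6.00 for Ccl2, −6.10 for Il12b, −5.31 for Ptgs2 and −3.81 for Il1b. Leaving out 1 library at a time gave −8.98 to −6.38 for Nos2, −6.38 to −5.12 for Ccl2 and −6.90 to −5.47 for Il6. It gave −7.27 to −5.19 for Il12b, −5.98 to −4.58 for Ptgs2, −4.27 to −3.34 for Il1b and −2.27 to −1.77 for Tnf. Among these calls, those of Tnf, Nos2, Il1b, Il12b and Ptgs2 were lost without at least 1 Gm26917-hairpin library, at adjusted p-values of 0.0513 to 0.0736. Those of Il6 and Ccl2 were kept on leaving out any library, at adjusted p-values up to 0.04996 and 0.0281, so Il6 passed only just. Tfrc, the transferrin receptor and outside the rule for named genes, rose from 54.0 ± 4.90 to 111 ± 17.2 CPM. The number of TTP-family targets that fell was 9 without Gm26917-hairpin replicate 2 or 3, and that of Regnase and roquin targets was 6 and 7. Without control replicate 2 they were 17 and 12. The part of cell make-up in these falls was not tested. Macrophage markers summed to 12805 to 21639 CPM with the control hairpin and 18765 to 27265 CPM with the Gm26917 hairpin, and the 9 neutrophil markers to 273 to 647 CPM and 443 to 531 CPM. Of these 9, Csf3r held 198 to 411 CPM, Mmp8 43.1 to 256 CPM and S100a8 10.2 to 193 CPM over the 6 libraries, while S100a9, Retnlg, Cxcr2, Ly6g, Ngp and Mpo were at or near 0 in each. Of the macrophage markers 3 of 8 rose (Cd68, Csf1r and Lyz2) and 1 fell (Cd14). Their sum joins opposite changes, as Lyz2 went from 5350 ± 2097 to 14964 ± 4667 CPM and Cd14 from 8180 ± 4240 to 1789 ± 419 CPM. Of the Kupffer cell markers 1 of 6 tested rose, of the neutrophil markers 1 of 3 tested rose (Mmp8), and of the endothelial markers 1 of 3 tested fell. No B cell marker of 5 and no stellate or fibroblast marker of 2 was called, also not at an unadjusted p under 0.05 or in DESeq2, and no hepatocyte or T and NK cell marker passed the filter on low counts.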

How the data were processed

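The authors deposited 1 table per library, which per the file headers holds raw counts, whole numbers for each Ensembl gene ID, with no normalization. Per the submitters' processing notes, the tools were STAR and featureCounts 1.6.3 and the assembly mm10. The sources used here give no parameters, annotation release or strand setting, so reads of overlapping or antisense genes cannot be told apart. Macrophage column headers carry the word combined, and what was combined is not given.

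Symbols came from a name table that held 49326 of the liver IDs and 55141 of the macrophage IDs. Exon lengths came from GENCODE M21, joined over the transcripts of a gene. Each tissue was fitted alone in edgeR 4.0.16 (R 4.3.3) with filterByExpr at a minimum count of 10, TMM scaling and the 2-sided quasi-likelihood F test, group as the sole factor. Adjustment was by Benjamini-Hochberg over the genes tested in a tissue, with a threshold of 0.05. Log2 fold changes are LPS minus untreated, or Gm26917 hairpin minus control hairpin. Standard errors are the absolute log2 fold change over the square root of F. Levels are CPM on TMM-scaled library sizes. Ratios used counts plus 0.5. The scripts were tested on simulated data.

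The 9 members, the 7 lists and the 8 marker lists were chosen with earlier results of these data known. All members are described. From each other list the text names at most 3 called genes with the largest absolute change, plus Tnf, Il6 and Il1b from the target lists, and for each member called in liver the 2 most alike genes. Cyp7a1, Dusp1, Plau, Tfrc and the marker genes named were chosen after their values were seen. Alternatives were RLE scaling, library totals, DESeq2 1.42.0, no filter, at least 1 CPM in 3 libraries, a replicate block, all 12 libraries in 1 fit and each library left out. No sequence of Zfp36l2's promoter or of any protein was used here.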

Additional observations from a re-analysis of the deposited data

How the results depend on the processing

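Depth limits the low members: Zc3h12d rested on 41 to 194 counts per library and Zc3h12a on 51 to 54 in untreated liver. With 3 libraries a group, calls near the threshold moved with single libraries. In liver, the genes called numbered 6287, and 4865 to 6227 when each library was left out; members called higher ranged from 3 to 5 and lower from 2 to 3. With library totals alone 3 members were higher. In macrophages, 3049 genes were called, 839 to 5236 when each library was left out, with 0 to 1 members higher and 2 to 7 lower. With library totals alone 2 were lower. DESeq2 called 4002 genes in macrophages and the other settings 2594 to 3929. The log2 fold change of Rc3h1 in liver, −0.0032, turned positive with RLE scaling (0.0052), DESeq2 (0.0051) and the replicate block (0.034), and without untreated replicate 3 (0.30), LPS replicate 1 (0.11) or LPS replicate 3 (0.093); leaving out 1 library gave −0.25 to 0.30. That of Zc3h12d in macrophages, −0.23, turned positive with library totals alone (0.066), without control replicate 2 (0.41) and without Gm26917-hairpin replicate 3 (0.020); leaving out 1 library gave −0.66 to 0.41. Neither gene was called in these settings. Whether the replicate numbers pair the samples was not settled. Same-numbered libraries correlated in their deviations at 0.12, 0.050 and −0.077 in liver and −0.041, 0.24 and 0.18 in macrophages. Replicates 2 and 3 correlated best with their own number in macrophages, but not every library of the series did. With the replicate block 5754 genes were called in liver and 2594 in macrophages, and Zfp36 (adjusted p = 0.0534) and Rc3h1 (0.0780) lost their macrophage calls; 5 members were higher and 2 lower in liver, and 1 higher and 4 lower in macrophages. Parn (0.0506), Cnot6 (0.0567) and Dcp1a (0.0823) also lost their macrophage calls under the block, and 1 decapping gene fell there in place of 5. The ratios kept their direction and p-values with an offset of 0.1 in place of 0.5. Zfp36l1 and Rc3h1 also lost 1 call each with all 12 libraries in 1 fit (adjusted p = 0.0625 in liver and 0.278 in macrophages), and Rc3h2 in liver and Rc3h1 in macrophages without the filter on low counts (0.0584 and 0.118). The causes were not tested.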
